A study of Mus musculus with 6 samples.

Results

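Resting mast cells are described here from the 3 arrays labelled naive, out of 6 arrays in the series. Mast cells carry IgE on their surface and store histamine, heparin and proteases in granules, which they release within minutes when antigen cross-links that IgE. The members are the 30102 genes that the platform annotation names on their own, each taken once at its brightest row. Genes were ranked by their mean log2 signal over the naive arrays and then described as receptors, proteases, transcription factors, channels and mediators. Genes that varied most between the 3 arrays are described last.

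BMMCs, or bone marrow-derived mast cells, are a primary culture, grown here from the femur marrow of C57BL/6J mice. They were matured for 6 weeks with 5 ng/mL interleukin 3 (IL-3) and with 5% conditioned medium from CHO-KL cells as a source of stem cell factor (SCF). Naive cells were not left undisturbed: they spent 1 h in Tyrode's buffer alone, were washed, and returned to culture medium for 3 h before RNA was taken. The ionomycin arrays came from cells handled in the same way with 1 µg/mL of this calcium ionophore in the buffer. No comparison with ionomycin was made, and those arrays enter only where replicate numbers are followed. The labels give no age or sex of the mice. Nor do they state whether the 3 replicates were separate cultures or animals, so the spread between arrays may be technical.

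Mast cells arise from marrow progenitors that respond to SCF through the receptor Kit and, in mice, to IL-3. GATA2 and MITF are known to drive the genes of their granules and of the high-affinity IgE receptor. Cross-linking of that receptor activates Syk and phospholipase C gamma, and calcium then enters through STIM and ORAI proteins. Granules fuse with the membrane, and lipid mediators and cytokines are made afterwards.

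Values are the authors' log2 signals, in which a difference of 1 is a doubling of the signal. Background was taken as the 95th percentile of 1577 chemosensory receptor genes, a family of smell and taste receptors, and lay at a mean of 6.05. A mean at or under it is called not above background. Means from there to 8 are called low, from 8 to 10 moderate, from 10 to 12 high, and of 12 or more very high. Probes differ in how strongly they bind, so a class or a rank orders signals and not numbers of transcripts, and signals of different genes are not compared as amounts. The number of arrays limits the precision, and each ± gives the SD over n = 3 arrays.

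Of the 30102 genes, 61.9% had a mean above background and 60.0% exceeded the background of each array in all 3. The classes held 11471 genes not above background, 9489 low, 6529 moderate, 2065 high and 548 very high, and the high and very high classes together made up 8.68%. The median gene stood at 6.73. Predicted genes, pseudogenes, small RNAs and antigen receptor segments made up 409 of the 548 very high genes, and they are not named here. Array medians over all 65770 rows were 5.88, 5.95 and 5.99 for naive replicates 1, 2 and 3. Across genes, which are not independent replicates, Pearson's r was 0.997 between replicates 2 and 3 and 0.985 and 0.984 between replicate 1 and each of them. Replicate 1 thus stood apart from the other two.

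**Figure D1:**
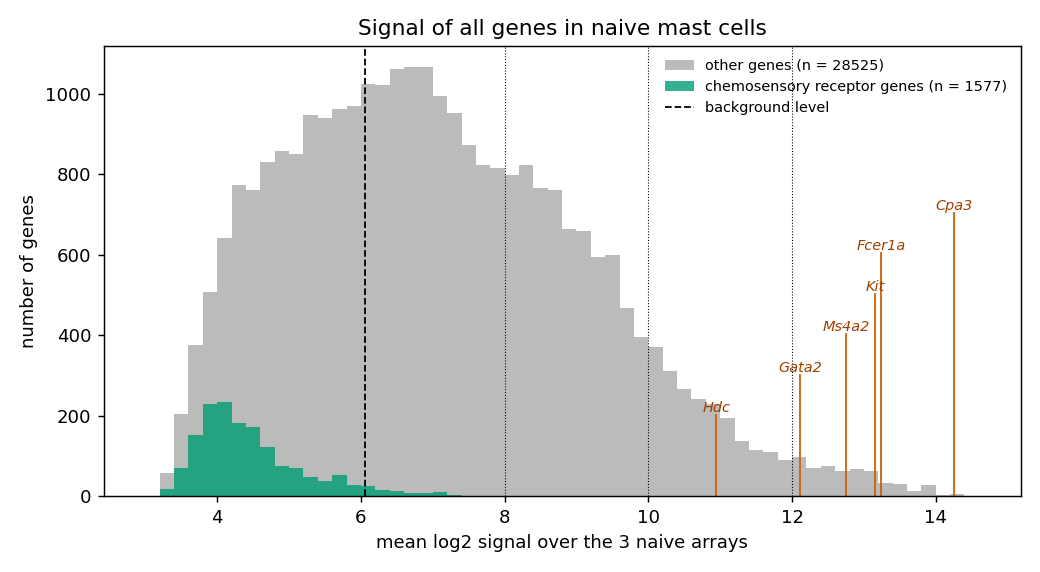
Distribution of the mean log2 signal over the 3 naive arrays (x axis) as the number of genes (y axis), for chemosensory receptor genes and for the other genes. The background of 6.05 and the edges of the classes at 8, 10 and 12 are drawn as lines, and bars of the 2 sets overlap. The 6 mast cell markers, drawn as lines whose height has no meaning, lie in the high and very high classes.

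All 6 mast cell markers were in the high or very high class, so the label of the cells was borne out. Cpa3, the mast cell carboxypeptidase, had log2 signals of 14.29, 14.16 and 14.31 in replicates 1, 2 and 3 (mean 14.25 ± 0.08 SD). No nameable gene ranked above it, and its rank among all genes was 5. Fcer1a, the IgE-binding alpha chain of the IgE receptor, gave 13.29, 13.21 and 13.22 (13.24 ± 0.04, rank 106). Kit, the SCF receptor, gave 13.27, 13.13 and 13.09 (13.16 ± 0.09, rank 130). The ranges of these receptors over the arrays were 0.08 for Fcer1a and 0.18 for Kit. Ms4a2, the signal-amplifying beta chain of the IgE receptor, gave 13.01, 12.66 and 12.58 (12.75 ± 0.23). Gata2 gave 12.02, 12.19 and 12.13 (12.12 ± 0.08). Hdc, the enzyme that makes histamine from histidine, was the most uneven marker, at 10.37, 11.21 and 11.26 (10.95 ± 0.50), with replicate 1 the low array.

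Markers of other marrow-derived cells were mostly low or not above background. Of 13 neutrophil markers measured, 5 were not above background and 8 were low, with a median of 6.26. S100a8, an abundant neutrophil protein, had a mean of 4.77 ± 0.22. Among 8 measured eosinophil markers, 4 were not above background, including the eotaxin receptor gene Ccr3 (4.42 ± 0.20), and 4 were low. B cell markers split evenly, with 6 of 12 low, and Ms4a1, which encodes CD20, stood at 4.46 ± 0.03. The T and NK cell markers were low for 12 of 15 genes and otherwise not above background. Cd4 had a mean of 5.19. Stromal markers were low for 7 of 12, and the matrix gene Dcn had a mean of 4.44 ± 0.10.

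Some markers of other lineages did stand above the low class. Of 16 macrophage and monocyte markers, 2 were high, the lysosomal Cd68 (11.45 ± 0.83) and the lysozyme gene Lyz2 (10.71 ± 1.02), and both were among the genes that varied between arrays. In bulk RNA, fewer cells of a type and less RNA per cell cannot be told apart. The complement gene C1qa was low (7.36 ± 0.05), as was Csf1r (7.40 ± 0.34), the receptor for macrophage colony-stimulating factor. Basophil markers included the steroid side-chain cleavage enzyme gene Cyp11a1 (13.47 ± 0.15) and Cd200r3 (11.32 ± 0.09), both of which mast cells can also express. The basophil proteases Mcpt8 (9.53 ± 0.72) and Prss34 (9.33 ± 0.89) were moderate, while Itga2, the basophil surface marker CD49b, was not above background (5.11). Megakaryocyte markers ran from Ppbp, not above background at 5.38, to Itga2b at 11.66 ± 0.15, the alpha chain of an integrin that mast cells also carry. Between them, Vwf (9.43), Gp5 (8.87) and Gp9 (8.45) were moderate. Of 8 erythroid markers measured, Car2 was high (10.17), and Tfrc (9.04) and Epor (8.06) were moderate. The other erythroid markers were low (2 genes) or not above background (3 genes). Cd34, a progenitor marker that mouse mast cells keep, was high (11.67 ± 0.24). H2-Ab1, a class II antigen presentation gene, was moderate (9.44 ± 0.54), and its partner chain H2-Aa was low (6.77 ± 0.15).

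In the receptor lists, 45 of 157 measured genes (28.7%) were in the high or very high class, against 8.68% of all genes. Another 36 were moderate, 52 low and 24 not above background. These lists also hold partner and signalling genes, such as Inpp5d and Myd88. The IgE and IgG receptor list of 8 genes held 3 very high members, which are the alpha, beta and gamma chains of the IgE receptor. Fcer1g, the shared signalling gamma chain, gave 12.43, 12.25 and 12.27 (12.31 ± 0.10). Fcgr3, the activating IgG receptor that also uses that chain, was high (10.36 ± 0.28), and the inhibitory Fcgr2b was moderate (9.02 ± 0.07). Fcgr1, the high-affinity IgG receptor, was low (6.36), and Fcgr4 (5.03) and the low-affinity IgE receptor Fcer2a (5.48) were not above background. None of the 6 members above background varied by 1 or more between arrays, against 4.59% of all genes above background. A list of 6 is too short to be told apart from that share.

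Of 32 growth factor and cytokine receptors measured, 2 were very high, 6 high, 10 moderate, 10 low and 4 not above background. Il4ra, the chain shared by the receptors for interleukins 4 and 13, joined Kit in the very high class, with 12.35, 12.36 and 12.11 (12.27 ± 0.14). The high members included Tgfbr1 (11.65 ± 0.37) and Tgfbr2 (10.65), which form the receptor for transforming growth factor beta, and Il10ra (10.99 ± 0.88), a chain of the interleukin 10 receptor. The culture's own cytokine was represented by Il3ra, moderate at 9.15, 9.64 and 9.63 (9.47 ± 0.28). Receptors of neighbouring lineages, Csf3r (6.00 ± 0.10), Flt3 (5.71 ± 0.05) and Il5ra (5.50 ± 0.17), were not above background. Csf2rb, Csf2rb2, Il1rl1 and Il2rg have no row that names them alone, so their signals are not given.

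Inhibitory and paired receptors had a median of 10.74 against 6.73 over all genes. Of 21 measured, 4 were very high and 11 high. Lilrb4a, an immunoglobulin-like receptor that restrains mast cell activation, gave 13.83, 13.78 and 13.94 (13.85 ± 0.08). Its close relative Lilr4b gave 13.58 ± 0.10, and the probes of such near-identical genes may share signal. Havcr2, which encodes TIM-3, gave 12.26, 12.23 and 12.44 (12.31 ± 0.11), and Cd47, the ligand of Sirpa, had a mean of 12.12. Cd300a was high (10.10 ± 0.28). Siglecf (6.55 ± 0.04), an eosinophil lectin, was low, and Klrg1 (5.87), a lymphocyte receptor, was not above background.

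Of 46 G protein-coupled receptors measured, 9 were not above background and 22 were low, with 80.4% above background against 61.9% of all genes. F2r, the thrombin receptor PAR1, was the only very high member on the list, at 12.67, 12.48 and 12.40 (12.52 ± 0.14). The 3 high members were Adgrg3 (11.01 ± 0.16), an adhesion receptor, C3ar1 (10.97 ± 0.30), which binds the complement fragment C3a, and Ptger3 (10.86 ± 0.48), a prostaglandin E2 receptor. Mrgprb2, the mouse receptor for cationic peptides and drugs that is known from connective tissue mast cells, was low, at 7.13, 6.74 and 6.31 (6.73 ± 0.41). Its relative Mrgprb1 was moderate (8.22 ± 0.16). Histamine receptor genes were moderate (Hrh2, 8.23 ± 0.15) or low (Hrh4, 7.27 ± 0.86), and Hrh4 varied between arrays, at 8.24, 6.96 and 6.60. Ptgdr (4.23) and Cysltr1 (4.39), receptors for prostaglandin D2 and cysteinyl leukotrienes, were not above background.

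Toll-like and innate receptors had 7 of 23 genes not above background and 10 low. The lipopolysaccharide receptor was present through Tlr4 (9.34, 9.49 and 9.42, mean 9.42 ± 0.07) and its partner Ly96, which encodes MD-2 (10.07 ± 0.50). Cd14, the co-receptor that hands lipopolysaccharide over, was low (7.34 ± 0.10). Cd180, a Toll-like receptor relative, was the other high member (10.53 ± 0.16), yet Ly86, which encodes its partner MD-1, was not above background in any array (4.31, 4.31 and 4.34). The receptors of nucleic acids Tlr3 (4.53), Tlr7 (5.02) and Tlr8 (4.68) were also not above background. Among integrins and other adhesion genes, 12 of 27 were high or very high (44.4%), against 8.68% of all genes. The granule tetraspanin Cd63, used as a marker of degranulation when it reaches the surface, gave 13.16, 13.23 and 13.23 (13.21 ± 0.04). Itgb3 (11.77 ± 0.23) and Itgb7 (10.54 ± 0.06), the latter a beta chain needed for mast cell progenitors to home to the gut, were high. The alpha partners of Itgb7, Itga4 (7.90 ± 0.23) and Itgae (6.50 ± 0.07) were low.

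The 2 highest nameable signals, those of Cpa3 and Tpsb2, belonged to granule proteases. Of 19 mast cell and basophil granule proteases measured, 7 were very high, 2 high, 3 moderate, 4 low and 3 not above background. After Cpa3, the tryptase Tpsb2 gave 14.09, 14.07 and 14.05 (14.07 ± 0.02), and the chymase Cma1, known as mMCP-5, gave 13.48, 13.56 and 13.60 (13.55 ± 0.06). Neither had an array that stood off. Gzmb, granzyme B, was very high in each array but lower in replicate 1, at 13.02, 13.82 and 13.93 (13.59 ± 0.50). Tpsab1, a tryptase in the high class, was likewise lower there, at 10.99, 11.80 and 11.79 (11.53 ± 0.46). Mcpt4, a connective tissue chymase, gave 11.78, 12.26 and 12.37 (12.14 ± 0.31). Mcpt1 and Mcpt2, the mucosal chymases, were instead higher in replicate 1. Mcpt2 gave 13.17, 12.56 and 12.59 (12.78 ± 0.34), and Mcpt1 gave 11.09, 9.72 and 9.79 (10.20 ± 0.77). The basophil proteases Mcpt8 (10.36, 9.20 and 9.03) and Prss34 (10.35, 8.94 and 8.70) were higher in that array too. Over the 8 basophil markers, the average signal was 9.18, 8.75 and 8.72, with 6 of 8 higher in replicate 1, against 10492 of 30102 genes. In the ionomycin arrays 4 of the 8 were higher in replicate 1 and 4 lower, against 12576 of 30102 genes higher. Their deviations there ran from -0.18 to 1.98. Of the 19 granule proteases, 10 were higher in naive replicate 1 and 16 in ionomycin replicate 1. The part of basophils in the chymase values was not tested. Chymases, tryptases and granzymes are families of close relatives, and their probes may share signal.

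**Figure D2:**
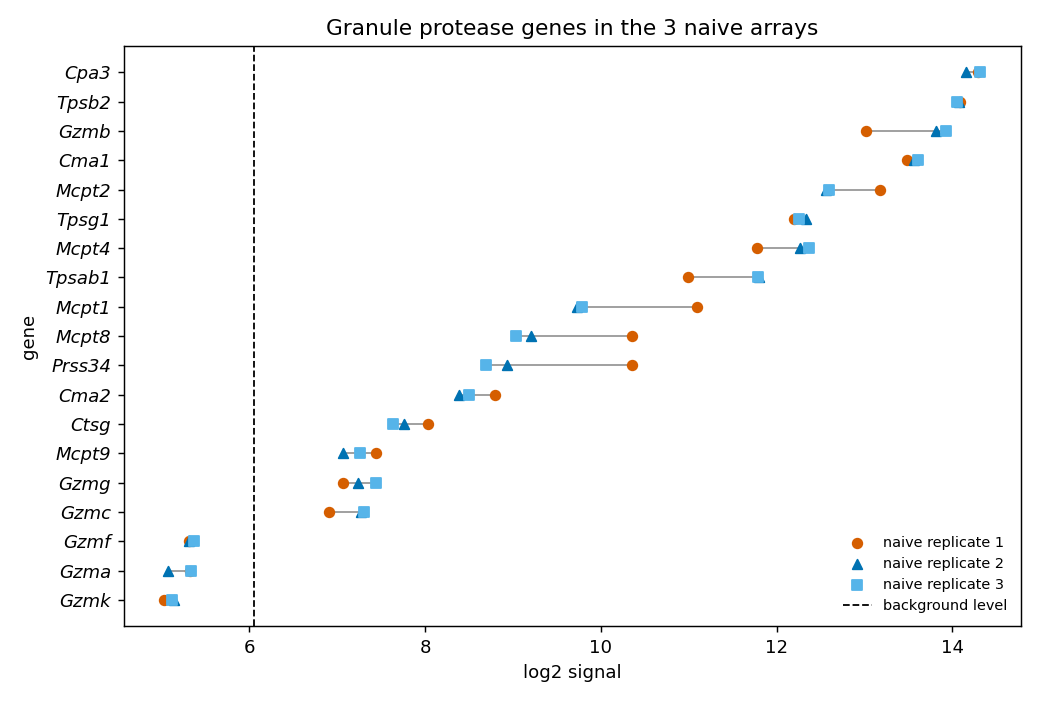
Log2 signal (x axis) of each measured mast cell and basophil granule protease (rows) in naive replicates 1, 2 and 3, shown as points, beside the background of 6.05. The points of Cpa3, Tpsb2 and Cma1 lie close together, while replicate 1 lies to the right for Mcpt1, Mcpt8 and Prss34 and to the left for Gzmb and Tpsab1.

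Promoters of Cpa3 and Fcer1a are shown because both genes are known to depend on GATA factors and carried very high signals. They run from 250 bases before to 50 after the RefSeq start site on GRCm38.p6, on the gene's own strand, with the GATA core GATAA, or its reverse complement TTATC, in capitals. Cpa3 lies at chr3:20242132-20242431 (minus strand) and Fcer1a at chr1:173227180-173227479 (minus strand).
Cpa3: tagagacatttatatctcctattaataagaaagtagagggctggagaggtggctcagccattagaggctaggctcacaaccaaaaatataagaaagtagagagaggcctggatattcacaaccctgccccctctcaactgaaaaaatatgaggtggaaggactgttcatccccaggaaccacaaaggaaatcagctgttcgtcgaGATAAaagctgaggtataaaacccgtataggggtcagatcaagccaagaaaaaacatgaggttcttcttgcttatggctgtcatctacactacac
Fcer1a: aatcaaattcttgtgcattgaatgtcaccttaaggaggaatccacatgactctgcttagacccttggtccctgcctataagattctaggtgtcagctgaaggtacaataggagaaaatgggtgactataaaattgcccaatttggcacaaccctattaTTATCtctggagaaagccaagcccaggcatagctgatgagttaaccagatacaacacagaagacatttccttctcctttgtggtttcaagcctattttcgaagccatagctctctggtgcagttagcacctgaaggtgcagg
The Cpa3 core began 45 bases before the start site, and that of Fcer1a 92 bases before it, on the opposite strand. Counting both strands of 1 promoter per gene, GATAA was present for 9 of 17 granule proteases (52.9%) and 4 of 8 IgE and IgG receptors. It was present in 25.8% of all 27025 promoters and in 16.6% of those of genes above background. The longer AGATAA was present for 3 of the 17 proteases (17.6%) and 2 of the 8 receptors, against 11.4% of all promoters. The protease promoters differed in other letters too. TTTGAA was present for 7 of the 17 (41.2%), against 18.1% of all promoters, and GGGCGG for 0, against 35.9%. The core is short, and a match is a description of the letters and not of a bound site. It was 1 of 13 motifs searched, and those shown were chosen after the shares were seen.

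The cathepsins and lysosomal proteases were all above background, against 61.9% of all genes. Of the 18, 2 were very high, 5 high, 7 moderate and 4 low. Ctsb, cathepsin B, had a mean of 12.60 ± 0.19, and Tpp1, a lysosomal tripeptidyl peptidase, 12.48 ± 0.04. Ctsc, the dipeptidyl peptidase that activates granule serine proteases, was high (10.34 ± 0.28), and so was Ctse (10.06 ± 0.19). Among 18 sheddases and surface proteases, Anpep, the aminopeptidase CD13, gave 12.89, 13.27 and 13.22 (13.12 ± 0.21), and Furin, which cleaves precursor proteins, gave 12.01 ± 0.27. Adam10, which sheds receptors from the cell surface, was high and even (11.62 ± 0.11). Adam8 (9.37, 11.63 and 11.34) and the urokinase gene Plau (10.70, 11.86 and 11.82) were both lower in replicate 1 by more than 1. Neutrophil granule contents were at most low in all 10 genes, among them Ctsg (7.81 ± 0.20), which encodes cathepsin G, and Mpo (6.59 ± 0.06). Of 17 protease inhibitors, Serpinb1a, an inhibitor of neutrophil-type serine proteases, was the only very high one, at 13.78, 13.60 and 13.55 (13.64 ± 0.12). The cystatin genes Cst3 (11.64 ± 0.12) and Cst7 (11.55 ± 0.14) were high.

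In the transcription factor lists, 84 of 85 measured genes were above background, against 61.9% of all genes. These lists also hold a few genes that do not encode such factors, such as Ier3 and Tnfaip3. Of the 44 lineage factors, 2 were very high, 14 high, 15 moderate and 12 low, and 1, Tfec (5.46), was not above background. Besides Gata2, the very high factor was Id2, an inhibitor of E proteins, which was uneven at 11.92, 13.16 and 13.16 (12.75 ± 0.71). Mitf, the factor needed for mast cell development, gave 10.55, 10.08 and 9.80 (10.14 ± 0.38). Tal1 (10.55 ± 0.31), Runx1 (10.31 ± 0.08), Fli1 (11.45 ± 0.11) and Stat5b (10.42 ± 0.15), which relays IL-3 and Kit signals, were high as well. Gata1 was moderate (9.56 ± 0.09). Factors of other lineages were low: Cebpa (6.34 ± 0.10), which directs granulocyte fate, and Pax5 (6.79 ± 0.04), which directs B cell fate. Bhlhe40 (10.95, 11.96 and 11.96) and Gfi1 (8.15, 9.38 and 9.21) joined Id2 as lineage factors lower in replicate 1.

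Immediate early genes, which usually rise within an hour of a stimulus, were all above background among the 27 measured, against 61.9% of all genes. Of these 27, 17 were moderate and 5 high. Klf6 (11.60 ± 0.09) and Ier3 (11.60 ± 0.08) were high and even. Fos was moderate, at 8.47, 7.98 and 8.27 (8.24 ± 0.25), as was Egr1, at 9.85, 9.06 and 8.92 (9.28 ± 0.50). The orphan receptor genes Nr4a1 (10.66, 9.21 and 9.99) and Nr4a3 (9.67, 7.91 and 8.18) and the factor gene Egr3 (9.83, 8.68 and 8.77) were highest in replicate 1, while Fosl2 (9.87, 10.84 and 11.07) was lowest there. All 14 NFAT and NF-kB genes were above background, again against 61.9% of all genes. NFAT factors carry the calcium signal to the nucleus: Nfatc1 was high (10.20 ± 0.17), and Nfatc3 (9.59 ± 0.02) and Nfatc2 (8.95 ± 0.15) were moderate. Of the NF-kB subunits, Rela (11.05 ± 0.09) and Rel (10.68 ± 0.27) were high.

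Channels and transporters of ions had no very high member among 86 genes, with 12 high, 29 moderate, 29 low and 16 not above background. The store-operated entry genes were moderate and differed little between arrays. Stim1, the sensor of the calcium store, gave 9.82, 9.72 and 9.58 (9.71 ± 0.12), and Orai1, the pore, had a range of 0.15 (9.09 ± 0.08). Orai2 gave 8.58 ± 0.12. Itpr2, a channel that releases calcium from the store, was high (10.07 ± 0.31). Trpm7 (9.28 ± 0.32), Trpv2 (9.46 ± 0.37) and the stretch-gated Piezo1 (9.42 ± 0.39) were moderate. Trpm4, which limits calcium entry in mast cells, lay just inside the moderate class (8.06 ± 0.23). Voltage-gated Cacna1c (5.96) and Cacna1d (5.52), as well as Trpa1 (4.91), were not above background. The pumps that refill the store were high, with Atp2a3 at 11.83 ± 0.06 and Atp2a2 at 11.03 ± 0.21, and so was the exchanger gene Slc24a3 (10.69 ± 0.21).

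Kcnn4, the calcium-gated potassium channel that keeps the membrane polarised during calcium entry, gave 10.19, 10.73 and 10.38 (10.43 ± 0.27). Kcne3, an accessory subunit, was also high (10.10 ± 0.11), and 6 of 20 potassium channel genes were moderate. Kcnj2, an inward rectifier, was low (6.15 ± 0.34). Of 26 chloride, purinergic and proton channels, 6 were high. The ATP-gated P2rx4 gave 11.81, 11.70 and 11.54 (11.69 ± 0.14), and P2rx1 gave 10.05 ± 0.35. Lrrc8a, the obligatory subunit of volume-regulated anion channels, was moderate (9.88 ± 0.05), and its partner Lrrc8c was high (10.97 ± 0.20). Cftr (4.17) was not above background. Kcnk5 (9.59, 8.87 and 8.34) was the 1 channel gene of the 70 above background with a range of 1 or more, against 4.59% of all genes above background.

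Stored mediators and the enzymes for lipid mediators came next. Slc18a2, the transporter that loads histamine and serotonin into granules, gave 13.02, 13.07 and 13.03 (13.04 ± 0.03). Tph1, which starts serotonin synthesis, was high (11.78 ± 0.17), and Tph2, the neuronal form, was not above background (5.87). Maob, which degrades amines, was high at 12.09, 11.44 and 11.29 (11.61 ± 0.42), and Hnmt, which inactivates histamine, was not above background (4.71). Srgn, the serglycin core protein that holds proteases in granules, gave 11.06, 11.00 and 11.07 (11.05 ± 0.04). Heparin synthesis was represented by Papss2 (12.69 ± 0.42), which makes the sulphate donor, and Ndst2 (11.25 ± 0.39), the sulphotransferase that mast cell heparin requires. Chsy1, a chondroitin synthase, was higher in replicate 1, at 12.23, 10.91 and 10.48.

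The leukotriene branch of eicosanoid synthesis carried the 2 very high members of 26. Alox5ap, the protein that activates 5-lipoxygenase, gave 13.39, 13.51 and 13.45 (13.45 ± 0.06), and Alox5, the enzyme itself, gave 13.07, 12.63 and 12.53 (12.74 ± 0.29). Ltc4s, which makes leukotriene C4, was moderate (8.99 ± 0.07). Hpgds, the blood cell form of prostaglandin D2 synthase, was high (10.82 ± 0.31), while Ptgds, the other form, was low (7.39). Pla2g4a, which frees arachidonic acid, was high (10.43 ± 0.20). Ptgs2, the inducible cyclooxygenase, was moderate at 9.24, 8.32 and 8.57 (8.71 ± 0.48). Alox15 was low (6.37) and Alox12 not above background (5.61).

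Of 44 cytokine and growth factor genes, 11 were not above background and 16 low, with 10 moderate and 7 high. Tgfb1 ran from 11.90 to 12.09, with a mean just under the edge of the very high class, and Mif was high (11.59 ± 0.19). Il4 was low (6.93, 6.48 and 6.65), and Il3 (5.33), Il5 (5.14), Il10 (4.81), Ifng (4.93) and Kitl (5.29) were not above background. Il13, a type 2 cytokine, was moderate on average but high in replicate 1 only, at 10.76, 8.65 and 8.62 (9.34 ± 1.22). Tnf had the largest range of the list, at 10.60, 8.39 and 7.36 (8.78 ± 1.66). Il6 gave 9.01, 8.31 and 7.93. Vegfa ran the other way, at 8.96, 10.94 and 11.07 (10.33 ± 1.18). Of 26 chemokines, 3 were high. Ccl2, a monocyte attractant, gave 11.68, 11.25 and 11.22 (11.38 ± 0.26). Ccl7 (11.37, 10.01 and 9.95), Ccl3 (11.09, 9.53 and 9.45) and Ccl4 (8.01, 6.58 and 6.56) were higher in replicate 1 by more than 1.

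Signalling and secretion genes were nearly all above background. In the proximal pathway of the IgE receptor this held for all 37 measured genes, against 61.9% of all genes. The median of the 37 was 9.81, and 18 (48.6%) were high or very high, against 8.68% of all genes. The adaptors Lcp2 (SLP-76, 12.01 ± 0.20), Lat (11.54 ± 0.11) and Lat2 (11.31 ± 0.17), on which the complex below the receptor is built, were high or very high. Inpp5d, the phosphatase SHIP1 that restrains the pathway, was high (11.95 ± 0.11). The kinase genes Syk (9.32, 9.47 and 9.31) and Fyn (9.64 ± 0.29) were moderate, and Btk was high (10.63 ± 0.39). Lyn has no row that names it alone. For granule exocytosis, 39 of 40 genes were above background (97.5%), against the same 61.9%. Snap23, the membrane SNARE of mast cell granules, gave 10.90, 10.87 and 10.93 (10.90 ± 0.03), and Stxbp2, which encodes Munc18-2, gave 10.53 ± 0.06. Vamp8, the granule SNARE, was moderate (8.98 ± 0.03). Rab27b was high (11.17 ± 0.15) and its relative Rab27a moderate (8.49 ± 0.11). The neuronal sensor gene Syt2 was low (6.60 ± 0.09).

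Genes of cell state complete the resting profile. Glycolysis and hypoxia genes had the highest median of the 42 lists, 10.89, with 7 of 24 very high. Heat shock genes were all at least moderate, from Ahsa1 (8.60) to Hspa8 (13.95 ± 0.13), the constitutive HSP70. Inducible Hspa1a was high, at 9.97, 10.96 and 10.90. Integrated stress response genes were above background for all 22 members, among them Ddit3 (11.42 ± 0.18), which encodes CHOP. Of 23 interferon-stimulated genes, 8 were not above background, and the 65.2% above it compare with 61.9% of all genes. Ifit3 (5.02) and Isg15 (5.72 ± 0.12) were among these 8, while Bst2, which tethers virus particles to the cell, was high (11.66 ± 0.22).

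Most genes differed little between the 3 arrays. Among the 18631 genes above background the median range, the highest minus the lowest array, was 0.25, and 80.2% had a range under 0.5. A range of 1 or more was found for 856 genes, 4.59%, and these are called variable. Of the 856, 762 (89.0%) exceeded the background of each array in all 3. Just inside that limit lay Ampd2 (1.0009) and Cacybp (1.0010), and just outside it Slbp (0.9998) and Gnaq (0.9983). In 817 of the 856, or 95.4%, replicate 1 was the array farthest from the others. It was higher for 568 genes, 3.05% of those above background, and lower for 249, or 1.34%. Between replicates 2 and 3 alone, 16 genes differed by 1 or more. Without replicate 1, none of the proliferation, cholesterol, glycolysis and hypoxia or chemokine genes counted below as variable, and 1 cytokine gene did. The ranges chose these genes and are given as a description.

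Replicate numbers are shared with the ionomycin arrays, which did not enter the choice, so the deviation of replicate 1 from the mean of replicates 2 and 3 was read there too. It had the same sign for 804 of the 856 genes (93.9%), with a Pearson's r of 0.87 across these genes. Because the genes were chosen by a large naive range, r is raised by the choice. Neither r nor the share of equal signs was computed over all genes. Over all 30102 genes, 10492 deviated upward in naive and 12576 in ionomycin replicate 1, with medians of -0.07 and -0.03. The genes are not independent points, and the replicates of both groups may share a culture. For the 568 genes higher in naive replicate 1, the median deviation was 1.31 in naive and 0.87 in ionomycin arrays, and 555 were higher in both. For the 249 lower genes, medians were -1.17 and -0.49, and 216 were lower in both.

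**Figure D3:**
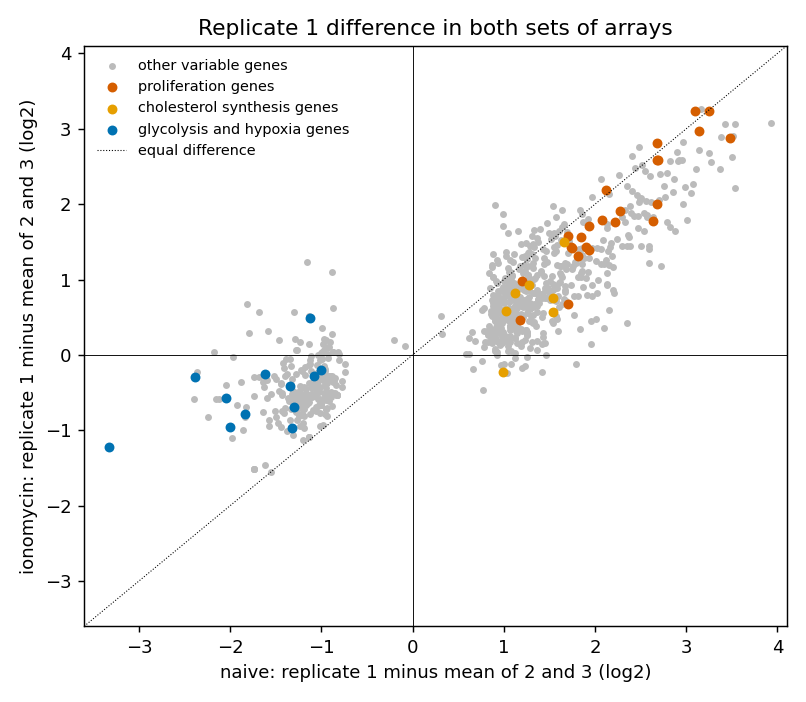
Deviation of replicate 1 from the mean of replicates 2 and 3 (log2), in naive arrays (x axis) and ionomycin arrays (y axis), with a point for each of the 856 variable genes, members of 3 lists in colour, and a dotted line where both would be equal. Points crowd into the upper right and lower left, where 804 genes have the same sign in both sets.

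Proliferation genes made up the clearest group. Of the 26 measured, 24 were variable, all with replicate 1 higher, against 4.59% variable among all genes above background. All 26 deviated upward in replicate 1 of both sets, by a median of 2.00 in naive and 1.74 in ionomycin arrays. Mki67, which encodes the Ki-67 protein of cycling cells, gave 12.59, 9.77 and 9.23 in naive replicates 1, 2 and 3, and 11.79, 8.71 and 8.40 in ionomycin replicates. Replicate 1 of the naive arrays was thus 8.53-fold above the mean of the other two. Top2a, a topoisomerase of dividing cells, gave 11.31, 8.71 and 8.54, and Ccnb2, a mitotic cyclin, gave 11.16, 8.55 and 8.40. For replication, the helicase subunit gene Mcm2 gave 10.49, 8.68 and 8.44, and Pcna, the polymerase clamp, gave 10.78, 9.65 and 9.51. The 2 members that were not variable, Cdt1 (9.23, 8.31 and 8.31) and Birc5 (7.99, 7.29 and 7.11), were also highest in replicate 1.

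The 15 nameable genes with the largest ranges and a high outlying array were led by Shcbp1 (9.53, 5.83 and 5.37). It was under the array background in replicates 2 (6.11) and 3 (6.10). Then came Hmmr (10.01, 6.67 and 6.28), Esco2, Cenpe, Nuf2, Knl1 and Pbk. The others were Kif15, Bub1, Cip2a, Ccna2, Mki67, Kif11, Depdc1a and Kif20a, and the ranges of the 15 ran from 3.29 to 4.17. Among them, Cenpe, Nuf2, Knl1 and Bub1 encode kinetochore proteins, and Kif11, Kif15 and Kif20a encode mitotic motor proteins. Of the 15, 4 were members of the proliferation list and 11 were not. Like Shcbp1, Esco2, Kif15 and Depdc1a were under the array background in replicates 2 and 3, and Cip2a was in replicate 3. The means of Shcbp1 and of these genes passed the background filter only through replicate 1.

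Promoters of Mki67 and Ccnb2 are shown because both genes stood out in replicate 1, with the CCAAT box, or its reverse complement ATTGG, in capitals. This motif binds NF-Y and is known from promoters of cell cycle genes. Mki67 lies at chr7:135716330-135716629 and Ccnb2 at chr9:70421505-70421804, both on the minus strand of GRCm38.p6.
Mki67: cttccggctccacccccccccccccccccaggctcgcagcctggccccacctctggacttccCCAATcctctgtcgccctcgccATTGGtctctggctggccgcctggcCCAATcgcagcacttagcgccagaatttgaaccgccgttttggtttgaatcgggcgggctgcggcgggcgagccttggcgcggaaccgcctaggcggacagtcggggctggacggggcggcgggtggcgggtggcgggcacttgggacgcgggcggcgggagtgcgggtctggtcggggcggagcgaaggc
Ccnb2: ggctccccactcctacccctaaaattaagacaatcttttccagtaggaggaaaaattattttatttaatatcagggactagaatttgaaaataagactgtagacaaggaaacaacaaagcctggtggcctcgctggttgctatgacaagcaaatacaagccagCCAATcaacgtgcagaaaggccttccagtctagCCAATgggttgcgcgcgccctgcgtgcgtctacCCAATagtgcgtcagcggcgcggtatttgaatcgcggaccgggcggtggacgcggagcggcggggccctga
In Ccnb2 the boxes began 87, 54 and 21 bases before the start site, all on the gene's strand. Mki67 had boxes at 188 and 141 bases before it and 1 on the opposite strand at 166. The letters were found in 20 of 24 proliferation promoters (83.3%), against 37.9% of all promoters and 37.9% of those of genes above background. They were found in 217 of 382 promoters of variable genes higher in replicate 1 (56.8%) and in 41.6% of those lower. GGGCGG was likewise found in 20 of the 24 proliferation promoters, against 59.0% of those of genes above background.

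Cholesterol synthesis genes also leaned to replicate 1. Of 17 measured, 7 were variable, all of them higher there, against 4.59% variable among all genes above background. All 17 deviated upward in naive arrays, against 10492 of 30102 genes, by a median of 0.83. In ionomycin arrays the median was 0.53, with 16 of 17 upward, against 12576 of 30102 genes. Fdps, which makes farnesyl diphosphate, gave 10.73, 9.21 and 8.92, and Insig1, a sterol-controlled brake on the pathway, gave 11.01, 9.50 and 9.44. Lss, the lanosterol synthase gene, gave 10.41, 9.06 and 8.68. CCAAT was present in 13 of 14 promoters of the list (92.9%), against 37.9% of all promoters. GGGCGG was present in 13 of the 14 too, against 35.9% of all promoters and 59.0% of those of genes above background.

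**Figure D4:**
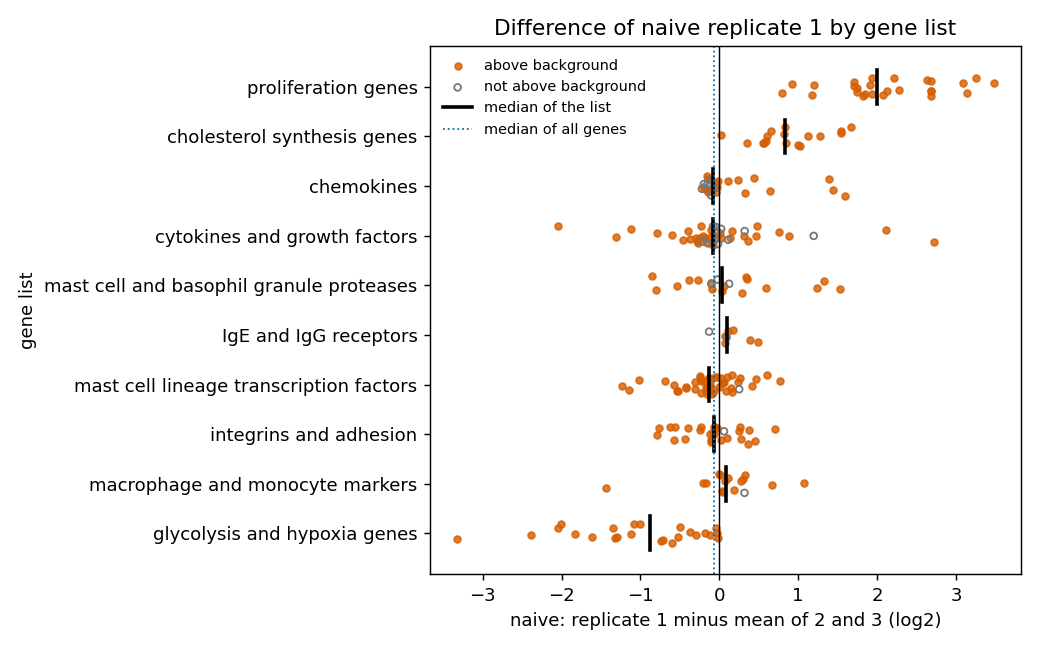
Deviation of replicate 1 from the mean of replicates 2 and 3 (log2, x axis) in the naive arrays for members of selected lists (rows), with a point for each gene, open where it is not above background. Bars mark list medians and the dotted line the median of all genes. All proliferation genes lie to the right of 0 around a median of 2.00, and all glycolysis and hypoxia genes to the left around -0.87.

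Glycolysis and hypoxia genes ran the opposite way. Of 24 measured, 12 were variable, all with replicate 1 lower, against 4.59% variable among all genes above background. None of the 24 deviated upward in naive replicate 1, against 10492 of 30102 genes, and the median was -0.87. In ionomycin arrays the median was -0.22, and 8 of the 24 deviated upward, against 12576 of 30102 genes, so the list was closer to all genes there. Egln3, an oxygen-sensing prolyl hydroxylase induced in hypoxia, gave 7.56, 11.03 and 10.74 in naive arrays and 9.69, 10.94 and 10.89 in ionomycin arrays. Its signal in naive replicate 1 was 10.0-fold under the mean of the other two. The glucose transporter gene Slc2a1 gave 11.44, 13.14 and 12.96, Hk2, a hexokinase, gave 9.48, 11.60 and 11.36, and Bnip3, a mitophagy receptor, gave 9.16, 10.99 and 10.98. The other 12 members were not variable. Among them, the glycolytic enzyme gene Gapdh gave 13.35, 13.46 and 13.48, and Ldha, which encodes a lactate dehydrogenase subunit, gave 12.10, 12.28 and 12.28.

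Of the 15 nameable genes with the largest ranges and a low outlying array, 14 were lowest in replicate 1. Besides Egln3, Hk2, Vegfa and Ankrd37 (6.40, 8.86 and 8.72), they included Adm (6.13, 8.41 and 8.20), a vasodilator peptide, and Hmox1 (9.49, 11.53 and 11.38), the inducible haem oxygenase. Vldlr gave 6.98, 9.02 and 8.79. The remaining ones were Ppp1r3b, Neo1, Nptx1, Arrdc3, Adam8, Fam102a and Pfkfb3, and the exception was Lyz2, lowest in replicate 3. For Hmox1 and Adm the deviation was -1.96 and -2.17 in naive arrays but -0.03 and 0.03 in ionomycin arrays, so these genes were level across the ionomycin replicates.

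Promoters of Egln3 and Bnip3 are shown with ACGTG, the core of the hypoxia response element, or its reverse complement CACGT, in capitals. Egln3 lies at chr12:54203825-54204124 and Bnip3 at chr7:138909457-138909756, both on the minus strand of GRCm38.p6.
Egln3: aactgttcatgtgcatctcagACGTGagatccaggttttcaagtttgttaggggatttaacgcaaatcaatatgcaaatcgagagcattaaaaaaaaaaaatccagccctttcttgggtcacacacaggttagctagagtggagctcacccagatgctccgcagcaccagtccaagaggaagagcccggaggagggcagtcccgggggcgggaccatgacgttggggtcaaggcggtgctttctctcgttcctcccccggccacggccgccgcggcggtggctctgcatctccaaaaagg
Bnip3: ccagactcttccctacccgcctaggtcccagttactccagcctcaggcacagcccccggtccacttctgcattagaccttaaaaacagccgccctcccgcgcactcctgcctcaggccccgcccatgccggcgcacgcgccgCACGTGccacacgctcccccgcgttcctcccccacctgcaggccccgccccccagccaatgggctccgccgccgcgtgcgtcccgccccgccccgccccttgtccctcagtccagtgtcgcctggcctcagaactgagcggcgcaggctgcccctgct
The core began 229 bases before the start of Egln3. In Bnip3 the capitals mark cores on both strands that overlap, at 107 and 108 bases before the start. The letters were found in 14 of 24 glycolysis and hypoxia promoters (58.3%), against 19.7% of all promoters and 24.3% of those of genes above background. Variable genes lower in replicate 1 held them in 47 of 161 (29.2%) and those higher in 22.0%. GGGCGG was found in 19 of the 24 glycolysis and hypoxia promoters (79.2%), against 59.0% of those of genes above background.

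Receptor and mediator genes in the variable set were divided. Of the 133 genes of the receptor lists above background, 11 were variable (8.27%, against 4.59% of all genes above background). Replicate 1 was lower for 7 and higher for 3, and replicate 3 was lower for Clec7a. Of the 147 mediators above background, 13 were variable (8.84%), 8 with replicate 1 higher and 4 with it lower. Il10ra (9.98, 11.63 and 11.36), Tnfrsf1b (9.38, 10.50 and 10.65), a receptor for tumour necrosis factor, and Il1r2 (6.63, 8.35 and 8.37), a decoy receptor for interleukin 1, were lower. Il18r1, the interleukin 18 receptor chain, was higher, at 9.57, 7.78 and 7.45. Its partner chain Il18rap went the other way, at 9.30, 10.61 and 10.39. In ionomycin arrays the deviation of Il18r1 was 0.15 and that of Il18rap -0.90. For the cytokine genes Il13 and Tnf, replicate 1 was also the highest ionomycin array, with deviations of 1.26 and 1.18 after 2.12 and 2.73 in naive arrays. None of the 6 mast cell markers and none of the 26 integrin and adhesion genes above background was variable, against 4.59% of all genes above background. Lists of 6 and 26 are too short to be told apart from that share.

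Another, smaller group was lower in replicate 3. Of the 20 nameable variable genes in which replicate 2 or 3 stood off, 16 were low in replicate 3, and such genes were 0.0859% of those above background. Lyz2, the macrophage lysozyme gene, gave 11.42, 11.16 and 9.54 in naive arrays and 11.12, 11.51 and 9.98 in ionomycin arrays. Replicate 3 was 3.38-fold under the mean of replicates 1 and 2 in naive arrays. Ctss, cathepsin S of antigen-presenting cells, gave 9.94, 9.88 and 8.27, and Cybb, a subunit of the phagocyte oxidase, gave 8.46, 8.58 and 7.03. The macrophage elastase gene Mmp12 was 2.93-fold lower in replicate 3 than the mean of 8.45 and 8.66 in the other arrays. Clec7a, the beta-glucan receptor gene dectin-1, gave 8.20, 8.22 and 6.62. Mpeg1, which encodes perforin-2, gave 7.39, 7.35 and 6.10. The others were Mmp13, Lyz1, Gpnmb, Il1a, Slc35b4, Mmp8, H2-M2, Zfp628, Mrc1 and Tmem273. Replicate 3 of the ionomycin arrays was lower too for 15 of the 16, against 14143 of 30102 genes, and Tmem273 was the exception. Medians were -1.29 in naive and -1.23 in ionomycin arrays. Zfp628 (-0.02) and Slc35b4 (-0.16) were nearly level in ionomycin arrays. In naive arrays both fell stepwise, Zfp628 at 8.30, 7.81 and 7.22 and Slc35b4 at 8.35, 7.83 and 7.22.

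Over the whole macrophage and monocyte list, 12 of 16 members deviated downward in naive replicate 3, by a median of -0.10, against 11645 of 30102 genes and a median of 0.04 over all genes, and the average over the list was 7.68, 7.72 and 7.45 in replicates 1, 2 and 3. Csf1r gave 7.60, 7.60 and 7.01, Adgre1, which encodes F4/80, gave 8.37, 8.15 and 7.95, and C1qa was level at 7.38, 7.39 and 7.30. Cd68 was lowest in replicate 1 and not in replicate 3. Of the 3 variable members of the list, 1 was left without replicate 3. The part of other cells in these values was not tested.

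**Figure D5:**
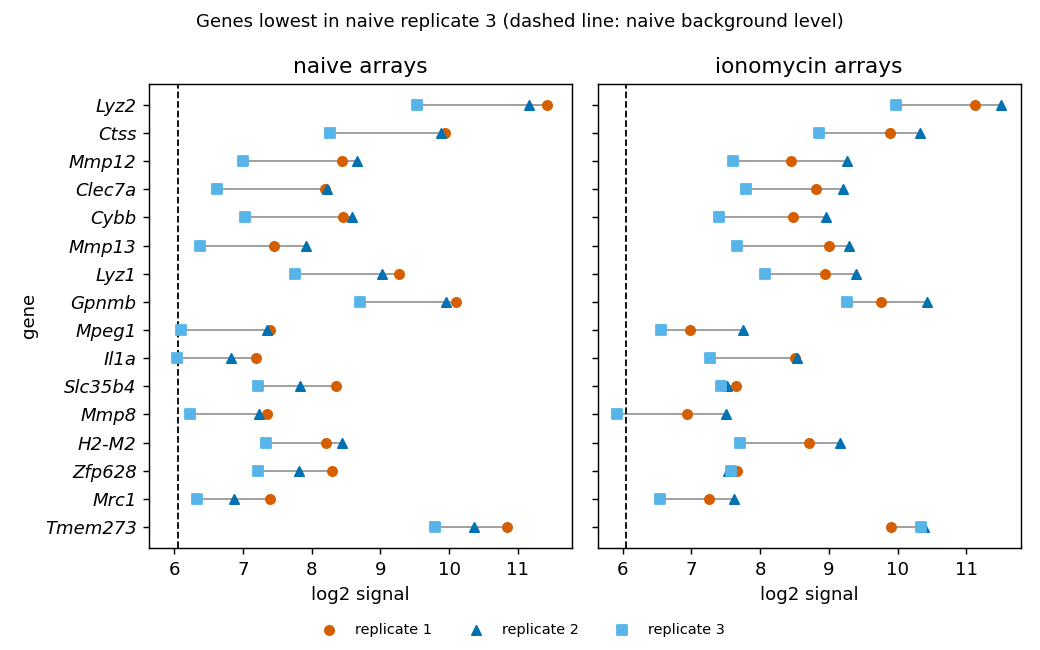
Log2 signal (x axis) of the 16 genes that were low in naive replicate 3 (rows), in the 3 naive arrays on the left and the 3 ionomycin arrays on the right. Replicate 3 lies to the left of the other replicates for 16 genes in naive arrays and is below their mean for 15 in ionomycin arrays.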

How the data were processed

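Total RNA of 3 naive and 3 ionomycin-treated BMMC samples was measured on whole-transcript Affymetrix arrays. The values are log2 signals deposited by the authors, made with the R package oligo per the submitters' processing notes. Its version, the summarization, normalization and genome build were not given in the sources used here, so scaling between arrays is unknown. Of 65770 rows, 30439 have 1 gene symbol after 827 symbols were updated through Entrez IDs and RefSeq, 2146 several and 33185 none. Rows with several symbols or none were left out. 252 genes had more than 1 row and were represented by the brightest over the naive arrays. Of 912 genes in 42 lists, 828 were measured and 84 have no row that names them alone.

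Background was the 95th percentile of the chemosensory receptor genes (olfactory, vomeronasal, taste and trace amine receptors). Genes named in the text were drawn from the 30 highest nameable genes and from each list's key members and 5 highest. Not all of these are named. The genes with the 15 largest ranges in each direction are all named. Predicted genes, pseudogenes, small RNAs and antigen receptor segments were left out. Genes outside that rule, among them most of those named as not above background and those low in replicate 3, were chosen after their values were seen. The members and lists were chosen with earlier results of these data known. No groups were compared and no test was run. The scripts were tested on simulated data, with Python 3.11.15, pandas 2.3.3 and numpy 2.4.6. Promoters are those of RefSeq on GRCm38.p6, which was used for sequences and names only, and 27025 genes have one. Alternatives were other normalizations, backgrounds, range limits and row rules, and leaving out each array.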

Additional observations from a re-analysis of the deposited data

How the results depend on the processing

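Of 447 values recomputed for 63 results under 9 alternatives, 424 stayed within 1.5 times the reported count or within 1 SD of the reported mean, and 23 moved further. None moved that far under quantile normalization, under centring of arrays on their median, or with the mean of a gene's rows. The means of the 6 mast cell markers moved by at most 0.29.

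Leaving out 1 naive array at a time gave 16 to 739 variable genes, 0 to 24 variable proliferation genes, 0 to 12 variable glycolysis and hypoxia genes and 0 to 6 variable cholesterol synthesis genes. It gave 0 to 3 variable chemokines, 1 to 6 variable cytokines and 1 to 3 variable macrophage markers. The lowest values came without replicate 1, except for the macrophage markers, where they came without replicate 3.

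With background at the 99th percentile, the low class held 4808 genes. Genes above background then numbered 2 for neutrophil granule contents, 6 for calcium pumps and exchangers, 11 for chemokines, 2 for neutrophil markers, 0 for eosinophil markers, 4 for dendritic cell markers, 4 for T and NK cell markers, 1 for B cell markers and 4 for stromal markers. Signals in the low class of these lists are therefore close to background.

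With a range of 0.5 or more, 3691 genes were variable, 2011 with replicate 1 higher and 1142 with it lower, and so were 15 cholesterol synthesis genes, 5 chemokines and 11 cytokines.

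No paired analysis was possible because the results come from no test and no groups were compared. Replicate numbers shared by naive and ionomycin arrays were followed as values only, and a test paired by them was not run.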
